A study of Homo sapiens with 13 samples.

Results

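Candidate inactive enhancers (cIEs) that nevertheless carried the acetyltransferases p300/CBP were described in MDA-MB-231 cells, a widely used human line of triple-negative breast cancer cells, grown under standard conditions without any treatment. A cIE was taken as an H3K4me1 region free of H3K27ac peaks over its whole length and away from promoters, that is, outside every 3 kb window centred on the canonical transcription start site (TSS) of a protein-coding gene. A region counted as bound where it shared at least 1 bp with a p300/CBP peak. Of the 88319 H3K4me1 regions, 49286 were cIEs, and 621 of these were bound. The members were thus chosen by the measured H3K4me1, H3K27ac and p300/CBP peaks, so their p300/CBP binding and their lack of H3K27ac are given as descriptions only. Among the 621, 565 lay on the chromosome arms and 56 lay within 5 Mb of the longest run of unknown bases (N) of their chromosome, which in hg19 mostly stands for the centromere, and both sets are described separately.

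The series holds 13 libraries, with 2 replicates each for H3K4me1, H3K4me3, H3K27ac, RNA polymerase II (Pol II), CTCF and Input, and 1 p300/CBP library made from pooled immunoprecipitations. The replicates had been merged before peak calling, and each antibody was represented by 1 list of peak positions with no height, count or score. The lists do not tell how deeply the libraries were sequenced, no spread between replicates could be given, and no test between classes of regions was made. Shares are printed with 95% Wilson intervals, which cover counting error only, as regions are not replicates of the cells. As a check of the cell line, all 6 promoters of the mesenchymal genes VIM, CD44, AXL, CAV1, FOSL1 and ZEB1 overlapped H3K27ac, against 2 of 6 luminal promoters (FOXA1 and ERBB3, but not ESR1, PGR, GATA3 and CDH1).

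p300 and its close relative CBP acetylate histones, including H3K27, and are brought to DNA by sequence-specific transcription factors rather than by binding DNA on their own. H3K4me1 marks enhancers whether or not they are in use, whereas H3K27ac usually accompanies activity, so that regions with H3K4me1 alone are commonly called primed or inactive. AP-1 dimers of Fos and Jun proteins, among which Fra-1 (the product of FOSL1) is abundant in this type of breast cancer cell, bind the heptamer TGAGTCA. FOX proteins bind variants of TGTTTAC, and RUNX proteins bind TGTGGTT.

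The DNA under the p300/CBP peaks is shown first for the widest peaks of at most 300 bp on the arms that held TGAGTCA, because this was the motif found at most bound cIEs among the 17 searched, and ties were taken in chromosome order. All sequences are the forward strand of hg19, 5′ to 3′, and capitals mark the AP-1 heptamer TGAGTCA, the FOX letters TGTTTAC and the RUNX letters TGTGGTT on either strand. Near the long N runs they mark the repeat unit GGAATGGAA. In each of the first 4 peaks below the AP-1 heptamer occurred once. The first lay in an intron of DHRS3, a retinal reductase gene, 13.0 kb downstream of the TSS. The second lay outside protein-coding genes, 4.80 kb upstream of KPRP, a gene of the epidermal differentiation complex. The third lay outside protein-coding genes, 167 kb downstream of the TSS of RHOU, a small GTPase gene, and the fourth lay outside protein-coding genes, 95.5 kb downstream of the TSS of HNMT, the histamine N-methyltransferase.
In DHRS3, chr1:12664401-12664701: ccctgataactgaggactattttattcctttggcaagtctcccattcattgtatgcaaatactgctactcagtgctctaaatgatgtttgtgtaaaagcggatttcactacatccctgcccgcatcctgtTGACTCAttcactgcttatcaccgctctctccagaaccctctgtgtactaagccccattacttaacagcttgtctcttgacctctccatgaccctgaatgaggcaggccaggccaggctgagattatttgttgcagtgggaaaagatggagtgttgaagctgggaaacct
Near KPRP, chr1:152724751-152725051: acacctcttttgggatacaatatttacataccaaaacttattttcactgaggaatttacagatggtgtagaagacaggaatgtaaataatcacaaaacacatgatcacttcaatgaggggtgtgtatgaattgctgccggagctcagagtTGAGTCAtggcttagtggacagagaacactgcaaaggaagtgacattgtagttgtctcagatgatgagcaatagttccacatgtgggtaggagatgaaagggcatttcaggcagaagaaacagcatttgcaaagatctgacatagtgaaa
Near RHOU, chr1:229038851-229039151: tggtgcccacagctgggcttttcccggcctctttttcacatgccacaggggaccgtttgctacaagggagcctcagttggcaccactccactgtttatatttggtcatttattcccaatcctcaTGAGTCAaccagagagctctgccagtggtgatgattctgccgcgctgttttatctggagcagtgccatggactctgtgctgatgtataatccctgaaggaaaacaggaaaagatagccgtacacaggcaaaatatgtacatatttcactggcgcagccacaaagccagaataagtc
Near HNMT, chr2:138817751-138818051: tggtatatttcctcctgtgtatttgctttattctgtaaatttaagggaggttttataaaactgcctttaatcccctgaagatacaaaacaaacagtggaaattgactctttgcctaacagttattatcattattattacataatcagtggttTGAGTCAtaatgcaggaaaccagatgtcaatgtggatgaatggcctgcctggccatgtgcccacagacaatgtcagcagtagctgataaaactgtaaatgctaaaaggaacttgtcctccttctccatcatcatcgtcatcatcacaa

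For contrast, the 2 widest such peaks without the AP-1 heptamer are given. One lay in an intron of ANAPC1, which encodes a subunit of the anaphase-promoting complex, 155 kb downstream of the TSS, and held 1 RUNX motif. The other lay within XIRP2, a gene of actin-binding Xin repeats, in a region that touched an annotated exon, and held none of the letters marked.
In ANAPC1, chr2:112485301-112485601: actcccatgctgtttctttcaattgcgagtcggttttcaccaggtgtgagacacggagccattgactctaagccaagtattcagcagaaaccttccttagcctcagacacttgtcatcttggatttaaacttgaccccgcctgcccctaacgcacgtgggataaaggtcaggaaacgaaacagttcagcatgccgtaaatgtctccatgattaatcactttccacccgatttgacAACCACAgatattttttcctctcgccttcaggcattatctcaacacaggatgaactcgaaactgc
In XIRP2, chr2:168109601-168109901: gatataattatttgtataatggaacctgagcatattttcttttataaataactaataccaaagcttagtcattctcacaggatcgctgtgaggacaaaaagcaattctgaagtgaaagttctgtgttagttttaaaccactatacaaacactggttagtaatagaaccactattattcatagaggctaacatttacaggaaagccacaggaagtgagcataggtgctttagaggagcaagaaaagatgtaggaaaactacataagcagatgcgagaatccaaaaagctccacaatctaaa

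Of the 17 motifs, FOX letters differed most in share between bound cIEs and bound active enhancers, so 2 further peaks of 300 bp that held TGTTTAC are shown, chosen after the motif shares had been seen. The first lay 277 kb upstream of COL3A1, which encodes a fibrillar collagen, and held 1 FOX and 1 RUNX motif. The second lay 218 kb downstream of the TSS of BTG1, an antiproliferative gene, and held 2 FOX motifs and 1 AP-1 heptamer.
Near COL3A1, chr2:189560701-189561001: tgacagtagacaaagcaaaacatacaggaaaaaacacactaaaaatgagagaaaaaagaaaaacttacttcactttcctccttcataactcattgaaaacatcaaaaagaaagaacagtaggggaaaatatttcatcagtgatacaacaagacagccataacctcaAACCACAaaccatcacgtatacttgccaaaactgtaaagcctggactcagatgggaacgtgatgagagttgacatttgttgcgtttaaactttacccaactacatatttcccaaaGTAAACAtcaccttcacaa
Near BTG1, chr12:92320651-92320951: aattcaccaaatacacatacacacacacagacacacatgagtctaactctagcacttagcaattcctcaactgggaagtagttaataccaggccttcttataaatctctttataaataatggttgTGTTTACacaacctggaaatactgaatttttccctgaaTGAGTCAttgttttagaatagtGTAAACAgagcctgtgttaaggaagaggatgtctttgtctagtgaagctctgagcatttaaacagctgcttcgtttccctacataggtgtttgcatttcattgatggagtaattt

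Close to the long N runs, the 2 bound cIEs with most p300/CBP peaks are represented by 1 peak each, the widest of at most 300 bp. The peak on chromosome 17 shares only 50 bp with its H3K4me1 region and runs on beyond it. Their nearest TSSs were those of WSB1 at 353 kb and CWH43 at 654 kb. The peak on chromosome 17 held 9 copies of GGAATGGAA and the one on chromosome 4 held 16, overlapping copies included, and neither held an AP-1, FOX or RUNX motif.
Near WSB1, chr17:25267701-25268001: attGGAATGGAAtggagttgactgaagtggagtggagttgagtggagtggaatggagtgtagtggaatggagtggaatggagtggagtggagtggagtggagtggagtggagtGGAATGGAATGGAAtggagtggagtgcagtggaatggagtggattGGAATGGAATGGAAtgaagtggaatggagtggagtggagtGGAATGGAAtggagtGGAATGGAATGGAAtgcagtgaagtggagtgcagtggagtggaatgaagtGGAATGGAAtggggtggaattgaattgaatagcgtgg
Near CWH43, chr4:49645151-49645351: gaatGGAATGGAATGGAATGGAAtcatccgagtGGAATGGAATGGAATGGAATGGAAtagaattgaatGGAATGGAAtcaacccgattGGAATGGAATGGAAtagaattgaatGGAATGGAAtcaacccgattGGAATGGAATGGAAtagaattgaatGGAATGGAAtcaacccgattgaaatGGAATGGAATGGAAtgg

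How common bound cIEs are was considered first. On the arms 565 of 46393 cIEs overlapped p300/CBP, or 1.22%, and near the long N runs 56 of 2893 did, or 1.94%. Seen from the p300/CBP list, 716 of its 13984 peaks (5.12%) lay in bound cIEs, whereas 7004 (50.1%) lay in the 5013 bound candidate active enhancers (cAEs), which carry both H3K4me1 and H3K27ac. This list holds more p300/CBP peaks than the paper reports, so these shares are not those of the published peaks. Bound cIEs were found on all autosomes and on chromosome X. Their share among the arm cIEs of an autosome ran from 0.214% on chromosome 19, with 3 members, to 2.02% on chromosome 13, with 21. Chromosome 3 held the most members on arms, 64, and chromosome 2 held 62. On chromosome Y 2 of 5 arm cIEs overlapped p300/CBP peaks, and 28.6% and 20.8% of the 32-base words in the 300 bp windows around these peaks occurred elsewhere in hg19. The region at chrY:13448201-13448901 also had H3K4me3, with GGAATGGAA in its window, and both regions count among the 565 arm members. Whether the reads behind these peaks came from chromosome Y was not tested.

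Bound cIEs were wider than other cIEs. Their H3K4me1 regions on the arms had a median width of 1850 bp (quartiles 1250 and 2650 bp), against 900 bp (550 and 1400 bp) for the 45828 unbound cIEs and 4500 bp (2950 and 7150 bp) for the 4670 bound cAEs. Across quartiles of cIE width the bound share went from 0.160% (19 of 11872 regions of 300 to 550 bp) through 0.386% and 1.09% to 3.30% (378 of 11444 regions of 1450 bp or more). A wider region has more room for a peak, and the part of plain length in these shares was not tested.

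The bound share was also greater farther from acetylated chromatin. It was 0.352% (95% interval 0.150 to 0.821%) for cIEs with H3K27ac within 1 kb, 0.722% at 1 to 5 kb, 1.16% at 5 to 20 kb, 1.33% at 20 to 100 kb and 2.12% (1.77 to 2.54%) beyond 100 kb. The median distance from a bound cIE to the nearest H3K27ac region was 26.1 kb (quartiles 8.60 and 80.9 kb), whereas it was 15.7 kb (5.55 and 44.7 kb) for unbound cIEs. Few bound cIEs adjoined acetylated regions, as 5 of 565 had H3K27ac within 1 kb, or 0.885%, against 3.09% of unbound cIEs. These values use only lists that the rule used, and bound cIEs were also wider. The part of the rule and of region width in this trend was not tested.

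**Figure D1:**
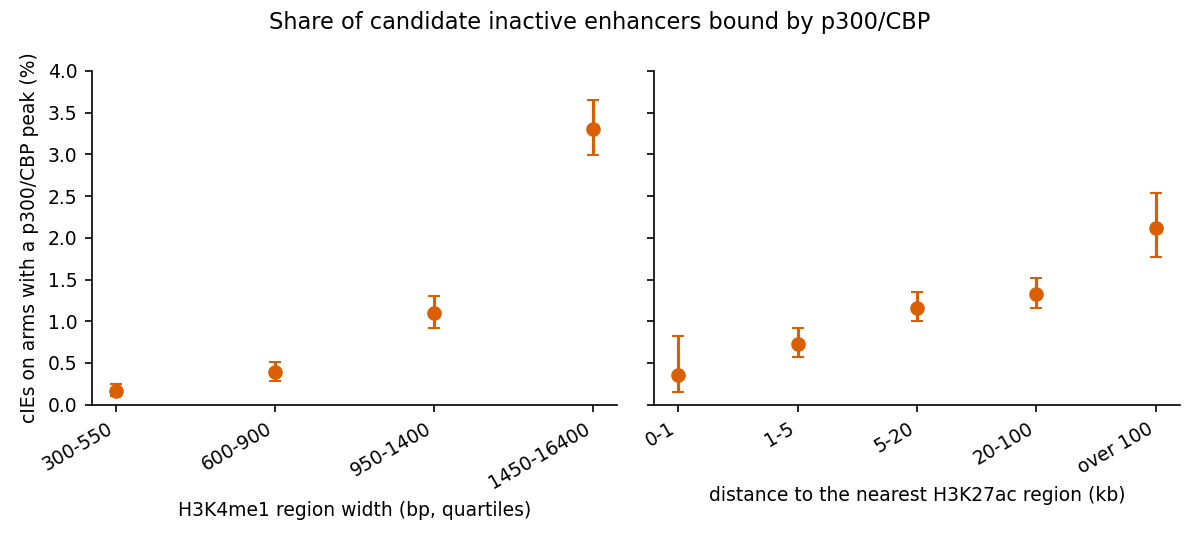
Share of cIEs on the arms that overlap p300/CBP (y axis, percent) by quartile of H3K4me1 region width in bp (left) and by distance to the nearest H3K27ac region in kb (right). Points are shares and bars are 95% Wilson intervals; the share goes from 0.160% to 3.30% across widths and from 0.352% to 2.12% across distances.

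The p300/CBP peaks in bound cIEs were narrow and mostly single. The 618 peaks of the arm members had a median width of 100 bp, the smallest width in the list, and reached 550 bp. A single peak was present in 516 of 565 members (91.3%), 2 peaks in 45 and 3 peaks in 4. Among bound cAEs 75.3% had 1 peak and the largest number was 9. The widest peak of a region was 100 bp in 50.3% of bound cIEs (284 of 565, 95% interval 46.2 to 54.4%) and in 27.4% (26.1 to 28.7%) of bound cAEs. Peak heights were not part of the lists, so binding strength is known only through these widths. The centre of the widest peak lay in the central 50% of the H3K4me1 region in 423 members (74.9%; 80.1% of bound cAEs), with a median of 625 bp to the nearer edge.

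Few members were borderline in overlap or distance. In peak width many were, as the widest p300/CBP peak was 100 bp, the smallest width in the list, in 284 of 565. On the arms 5 members shared only 50 bp with their p300/CBP peak and 560 shared more, while 19 unbound cIEs had a p300/CBP peak within 50 bp. H3K27ac was within 100 bp of 1 member and within 500 bp of 5, and a promoter window was within 500 bp of 2. Among bound cAEs, 5 of 4670 shared 100 bp or less with H3K27ac. The nearest arm member lay 5.70 Mb from the long N run and the farthest member inside the zone lay 4.86 Mb from it.

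Pol II, H3K4me3 and CTCF, which the rule did not use, were scarce at bound cIEs on the arms. Pol II, the enzyme that transcribes enhancers as well as genes, was found at 8 of 565, or 1.42% (95% interval 0.719 to 2.77%), against a background of 3.63% over all arm cIEs and against 25.5% (24.3 to 26.8%) of bound cAEs. CTCF, the factor of chromatin loop anchors and boundaries, was found at 16, or 2.83% (1.75 to 4.55%), against a background of 7.51% and against 15.2% (14.2 to 16.2%) of bound cAEs. H3K4me3, which is typical of promoters and strong enhancers, was found at 14, or 2.48% (1.48 to 4.12%), against a background of 3.05% and 30.5% (29.2 to 31.9%) of bound cAEs. For Pol II and CTCF the intervals of bound cIEs lay below the shares of unbound cIEs (3.66% and 7.57%), although the bound regions were wider, and after weighting to the widths of the bound cIEs the unbound shares were 5.01% and 9.28%. For H3K4me3 the interval of bound cIEs held the unbound share of 3.06% and the width-weighted share of 3.71%. At least 1 of the 3 was present at 36 bound cIEs (6.37%, 4.64 to 8.69%), at 13.2% of unbound cIEs and at 44.5% of bound cAEs, which leaves 529 bound cIEs with H3K4me1 and p300/CBP only among the 6 lists. The regions of bound cAEs had a median width of 4500 bp, against 1850 bp for bound cIEs. The shares of bound cAEs were not weighted to width, and the part of width in their gap to bound cIEs was not tested.

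**Figure D2:**
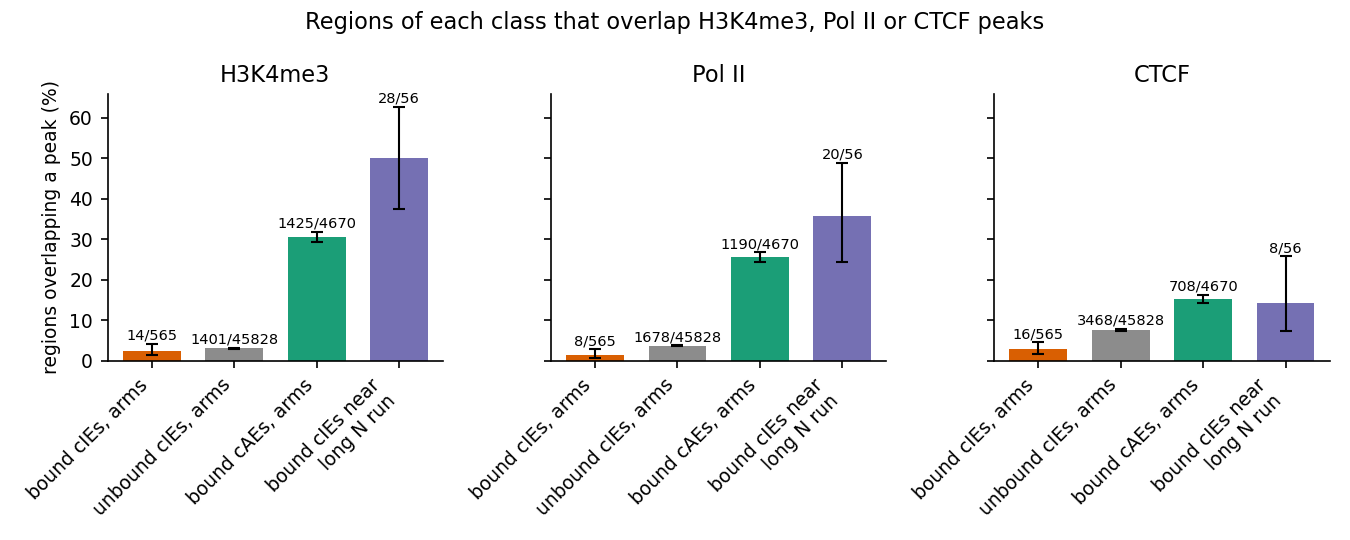
Percent of regions overlapping an H3K4me3, Pol II or CTCF peak (y axis) in 4 classes: bound cIEs, unbound cIEs and bound cAEs on the arms, and bound cIEs within 5 Mb of the longest N run. Bars are shares, whiskers 95% Wilson intervals and the labels give regions with a peak over all; bound cIEs on the arms stay at 1.42 to 2.83%, and those near the N runs reach 50% for H3K4me3.

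The few arm members with Pol II or H3K4me3 included several in repeated DNA. More than 20% of the 32-base words around the p300/CBP peak occurred more than once in hg19 in 6 of the 14 members with H3K4me3, in 3 of the 8 with Pol II, in none of the 16 with CTCF and in 31 of the 529 with none of the 3. A region of 300 bp upstream of MAMDC2 (chr9:72652951-72653251) had both H3K4me3 and Pol II, a p300/CBP peak of 500 bp and GGAATGGAA in its window. A region in SH3RF3, an E3 ubiquitin ligase gene (chr2:109813601-109816101), had H3K4me3 and a 500 bp p300/CBP peak, and 89.6% of its words were repeated. The part of repeats in these marks was not tested. Among the 457 members whose words were all found once, H3K4me3 was present at 7 (1.53%) and Pol II at 4 (0.875%). Members with Pol II in unrepeated DNA included a region within MTR, the methionine synthase gene (chr1:237068101-237069901, 400 bp peak, 106 kb from H3K27ac), and one 122 kb downstream of the TSS of TJP1, which encodes the tight-junction protein ZO-1 (chr15:29989851-29992251). The region near TJP1 touched an annotated exon of a protein-coding gene.

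CTCF-marked members lay, among others, upstream of the TSS of LPP, a focal-adhesion gene (chr3:187754001-187756301, 116 kb), upstream of STEAP3, a ferrireductase gene (chr2:119963951-119967801, 13.6 kb), within LRRC28 (chr15:99924701-99926901) and upstream of RIOK2, an atypical kinase gene (chr5:96869351-96870951, 350 kb). The one near STEAP3 held the CTCF core letters AGGGGGC as well as TGAGTCA in its p300/CBP window. The member with the widest p300/CBP peak and CTCF lay 385 kb upstream of MMP16, a membrane-type metalloproteinase gene, with AP-1 and FOX motifs in its window.

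AP-1 heptamers were concentrated at the p300/CBP peaks of bound cIEs, at a share whose interval overlapped that of bound cAEs. In 300 bp windows centred on the widest peak, TGAGTCA was present on either strand in 256 of 565 bound cIEs, or 45.3% (95% interval 41.3 to 49.4%), and in 2254 of 4670 bound cAEs, or 48.3% (46.8 to 49.7%). It was present in 16.3% of the windows at the centres of unbound cIEs. Beside the peaks, 300 bp windows centred 600 bp to either side of the peak centre, which partly reached beyond the H3K4me1 region, held it in 46 of 1130 cases, or 4.07% (3.07 to 5.39%). One heptamer was found in 204 windows, 2 in 46 and 3 or more in 6, and its median distance to the centre was 49.5 bp (40 bp in bound cAEs). Peak width did not separate the members clearly in this respect, with 46.5% (40.8 to 52.3%) for a widest peak of 100 bp and 39.9% (33.1 to 47.1%) for 200 bp or more.

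The AP-1 share was largest in the members most remote from H3K27ac. It was 37.1% (26 of 70, 26.8 to 48.9%) with H3K27ac within 5 kb, 41.7% at 5 to 20 kb, 45.3% at 20 to 100 kb and 56.1% (64 of 114, 47.0 to 64.9%) beyond 100 kb, and the intervals of the first and last class overlapped. The share was 44.1% where the nearest promoter had H3K27ac and 47.4% where it had not.

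FOX and RUNX letters were at least as common in bound cIEs as in bound cAEs. TGTTTAC was present in 113 of 565 bound cIEs, or 20% (16.9 to 23.5%), in 11.4% (10.6 to 12.4%) of bound cAEs and in 5.27% of unbound cIEs. Its share in the flanks of the bound cIEs was 5.04%. It remained at 19.7% in members over 100 kb from a TSS and 20.6% in members without Pol II, CTCF and H3K4me3, while bound cAEs of the same 2 kinds had 11.7% and 12.1%. Weighting the cAEs to the GC content of the bound cIEs, whose windows had a median of 39.7% GC against 42.3%, gave 12.3%. Members with a widest peak of 200 bp or more held FOX letters in 24.6% (18.9 to 31.3%) and those with 100 bp in 16.5% (12.7 to 21.3%), with overlapping intervals. RUNX letters TGTGGTT were present in 20.9% (17.7 to 24.4%), against 17.1% (16 to 18.2%) of bound cAEs, 7.08% of unbound cIEs and 6.46% of flanks. C/EBP letters TTGCNNAA were present in 25.8% (22.4 to 29.6%), against 21.7%, 14.9% and 17.6%. For RUNX and C/EBP the intervals of bound cIEs and bound cAEs overlapped.

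FOX letters occurred in 47 of the 256 windows with an AP-1 heptamer (18.4%) and in 66 of the 309 without (21.4%), and RUNX letters in 14.5% (10.7 to 19.3%) of the former and 26.2% (21.6 to 31.4%) of the latter. Bound cAEs had the same order for RUNX, with 13.5% and 20.4%. At least 1 of the AP-1, FOX, RUNX and C/EBP motifs was present in 437 bound cIEs (77.3%), in 73.1% of bound cAEs and in 37.1% of unbound cIEs. The windows of 128 bound cIEs held none of them.

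**Figure D3:**
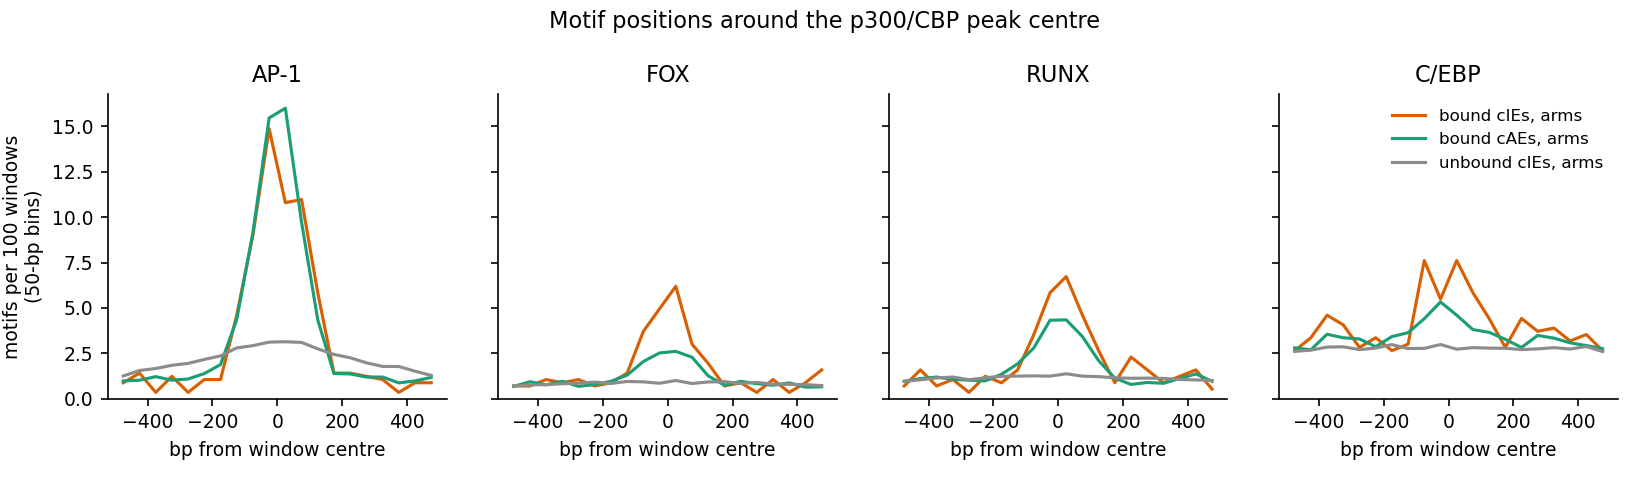
Motifs per 100 windows (y axis) in 50-bp bins against distance in bp from the centre of the widest p300/CBP peak, or of the region for unbound cIEs, on the arms. AP-1 reaches 14.9 per 100 windows in a bin next to the centre of bound cIEs and FOX 6.19, and beyond about 200 bp the AP-1 and FOX values of bound cIEs stay at or below 1.59.

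Other motifs set the classes apart less or in the other direction. TEAD letters GGAATGT were present in 8.67% (6.62 to 11.3%) of bound cIEs and 13.4% (12.4 to 14.4%) of bound cAEs, and in 5.91% of unbound cIEs. Letters of GATA factors, AGATAAG, were present in 7.26% (5.39 to 9.70%), against 5.46% and 4.21%. The ZEB/SNAI E-box CAGGTG was present in 16.6% (13.8 to 19.9%), against 14.3% of bound cAEs and 24.5% of unbound cIEs. Its share in the flanks of bound cIEs was 19.6%. Windows of unbound cIEs had a median of 45.3% GC, against 39.7% in bound cIEs. Weighted to the GC content of bound cIEs, CAGGTG was present in 18.1% of unbound cIEs, within the interval of bound cIEs, and in 11.7% of bound cAEs. The CTCF core was present in 1.95% of bound cIEs and 4.69% of unbound cIEs, and the GC box GGGCGG in 3.36% and 6.21%. Neither of these was weighted to GC content. The remaining motifs, CREB/ATF TGACGTCA, ETS CCGGAAG, NF-kappaB GGGNNTTCC, STAT TTCCNGGAA, the MYC E-box CACGTG, GRHL AACCGGTT and OCT ATGCAAAT, were each present in at most 3.19% of bound cIEs. The TEAD letters, which are not marked in capitals above, share GGAATG with the repeat unit GGAATGGAA. A match of letters is a description of the DNA and not of a bound factor.

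**Figure D4:**
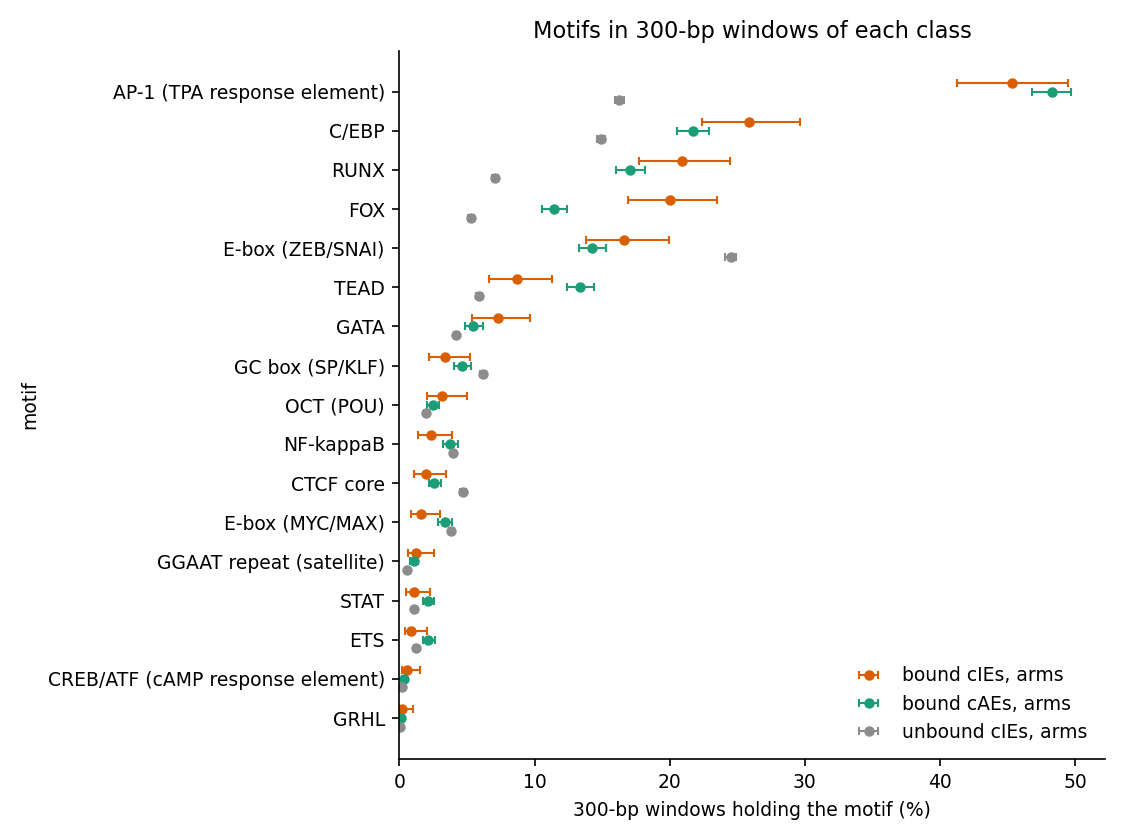
Percent of 300-bp windows holding each of 17 motifs (x axis; motif on the y axis, in order of the share in bound cIEs) for bound cIEs, bound cAEs and unbound cIEs on the arms. Points are shares and bars 95% Wilson intervals; AP-1 leads with 45.3% of bound cIEs and 48.3% of bound cAEs, and FOX differs most between those classes, with 20% and 11.4%.

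Bound cIEs lay far from promoters. Their median distance to the nearest canonical TSS was 107 kb (quartiles 39.7 and 284 kb), against 42.9 kb for unbound cIEs and 68.6 kb for bound cAEs. Over 100 kb separated 299 of 565 members (52.9%, 48.8 to 57.0%) from a TSS, but 27.4% of unbound cIEs and 39.1% of bound cAEs. Conversely, 34 members (6.02%) had a TSS within 10 kb, against 17.3% of unbound cIEs. The nearest promoter carried H3K27ac for 354 members, or 62.7% (58.6 to 66.5%), against 67.6% of unbound cIEs and 72.6% of bound cAEs, and Pol II for 52.2%, against 61.1% and 64.8%. Within protein-coding genes lay 246 members, or 43.5% (39.5 to 47.7%), while 58.0% of unbound cIEs and 48.0% of bound cAEs did. Outside coding genes but in an annotated lncRNA gene lay 116 members (20.5%), against 12.4% of unbound cIEs and 20.1% of bound cAEs. An exon of a coding gene was touched by 41 members (7.26%).

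**Figure D5:**
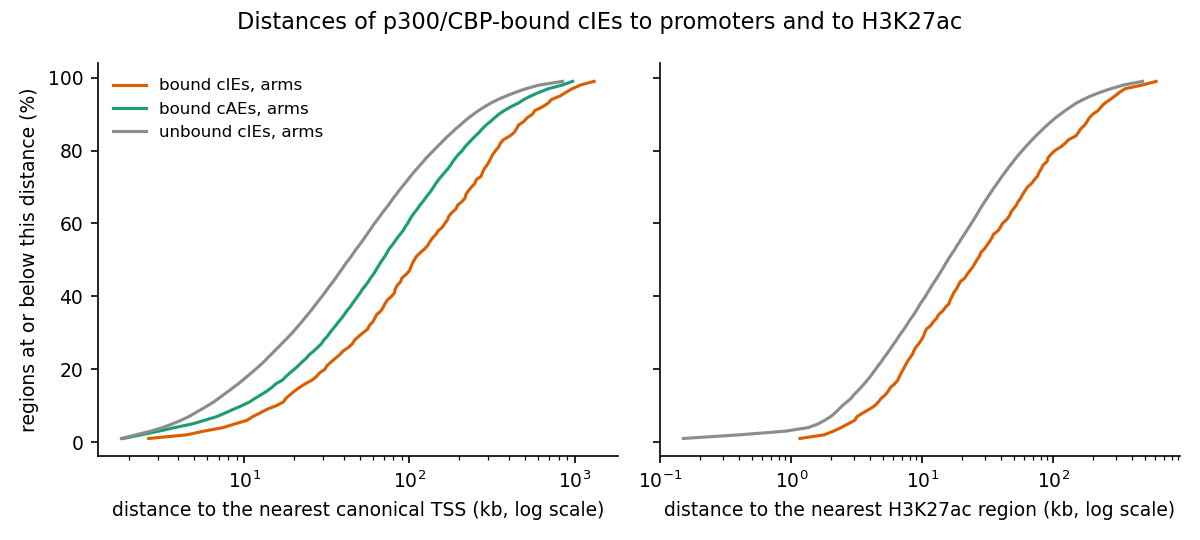
Percent of regions (y axis) at or below a given distance in kb (log axis) to the nearest canonical TSS (left) and to the nearest H3K27ac region (right) for arm classes; bound cAEs overlap H3K27ac and are not drawn on the right. The bound cIE lines lie to the right, with medians of 107 kb and 26.1 kb against 42.9 kb and 15.7 kb for unbound cIEs.

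The members with the widest p300/CBP peaks lay near genes of many kinds. The widest, 550 bp, lay 38.2 kb upstream of CYP2A7, a cytochrome P450 gene whose promoter lacked H3K27ac, in a region of 4850 bp (chr19:41426301-41431151) with AP-1 and FOX letters. Peaks of 450 bp lay within CCDC192 (chr5:127268901-127272501), with an AP-1 heptamer, and within IGF2BP3, an oncofetal RNA-binding protein gene (chr7:23372051-23375551), without one. Further peaks of 400 bp lay within MAN1A1, a Golgi mannosidase gene (chr6:119581701-119583151, with AP-1, FOX and C/EBP letters), and 343 kb upstream of CDH6, which encodes K-cadherin (chr5:30849351-30851051, 185 kb from the nearest H3K27ac). The 4 arm members with 3 p300/CBP peaks lay 55.7 kb upstream of MCTP2 (chr15:94716551-94719101), 19.7 kb upstream of SLC6A20, a proline transporter gene (chr3:45857701-45861051), 83.4 kb upstream of MEGF10, an engulfment receptor gene (chr5:126539401-126543051), and within ANKRD30BL (chr2:133002001-133003501), where H3K4me3 and Pol II were also found and 53.5% of the words were repeated.

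A total of 229 protein-coding genes hosted an arm member, and 15 hosted 2 or more. ROBO2, a receptor for the axon guidance ligands SLIT, hosted the most, with 4 of the 13 cIEs inside its 1743 kb (chr3:75955846-77699115), and its promoter had H3K27ac, H3K4me3 and Pol II. The ROBO2 members were 1150 to 3000 bp wide, lay 61.4 to 253 kb from H3K27ac and carried single p300/CBP peaks of 100 to 250 bp, and 2 of the 4 held an AP-1 heptamer. Both members within B4GALNT3, a glycosyltransferase gene (chr12:577601-579101 and chr12:596501-597951), lay in a gene whose promoter had H3K4me3 but no H3K27ac. Genes hosting 2 members also included the tumour suppressor and fragile-site gene FHIT (24 cIEs inside), LPP (42), the transcription factor gene MECOM (23), the secreted integrin ligand EDIL3 (13) and NALF1 (10), all with H3K27ac at the promoter. FGF14, KCNH7, NAALADL2, NEBL, PPP2R2B, GUCY1A2 and TMEM132D, whose promoters lacked it, hosted 2 each as well, and these genes were named after their values were seen.

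Spacing between members varied widely. The median gap from an arm member to the nearest other bound cIE was 947 kb, 59 members had another within 100 kb and 10 within 10 kb. The densest 1 Mb held 5 members, on chromosome 3 from 177307051 to 178112451, of which 3 lay 392 to 573 kb upstream of TBL1XR1, a subunit gene of the NCoR corepressor complex, and 1 within KCNMB2, a potassium channel subunit gene.

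Genes of 12 pathway lists were then examined by whether a bound cIE on the arms lay inside them or had their TSS as its nearest, beside 554 of 19869 protein-coding genes (2.79%) in all. Genes of 300 kb or more were linked in 129 of 827 cases (15.6%), so the median gene length of each list is given beside its count. Synaptic, axon guidance and neuronal adhesion genes were linked in 11 of 63 cases (17.5%; median length 836 kb), namely CSMD3, EFNA5, GRIK2, LSAMP, NRXN3, ROBO1, ROBO2, SEMA5A, SEMA6A, SLIT2 and UNC5C. The member in SLIT2, a ROBO ligand gene, lay 20.1 kb downstream of a TSS with H3K27ac (chr4:20273601-20274801) and held RUNX letters. The one within NRXN3, a presynaptic adhesion gene without promoter H3K27ac (chr14:79791001-79792051), held RUNX, C/EBP and FOX letters, and the one 808 kb downstream of the TSS of EFNA5, an ephrin gene (chr5:106198501-106198851), held RUNX and FOX letters. The share of this list was close to that of long genes as a whole.

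Cadherin and cell junction genes were linked in 4 of 27 cases (14.8%; median 153 kb), CDH6, CDH12, CDH18 and TJP1, and the promoters of the 3 cadherins lacked H3K27ac. TGF-beta pathway genes were linked in 4 of 30 cases (13.3%; median 79.3 kb). These were the receptor genes TGFBR2 (member 377 kb upstream, chr3:30268451-30270751) and ACVR2A (428 kb upstream, chr2:148172201-148174851, with AP-1, TEAD and RUNX letters), the activin subunit gene INHBA (122 kb downstream, chr7:41619651-41621051, promoter without H3K27ac) and LTBP1, which encodes a binding protein of latent TGF-beta (inside, chr2:33529501-33529851, with an AP-1 heptamer). The 2 receptor members lay 52.4 and 219 kb from the nearest H3K27ac region.

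Of the p300/CBP and histone modifier genes, 3 of 26 were linked (11.5%; median 135 kb), and CREBBP, which encodes CBP itself, was one. Its member spanned 8900 bp (chr16:3868101-3877001), lay 53.7 kb downstream of the TSS inside the gene and had a single p300/CBP peak of 100 bp with AP-1 and RUNX letters. The others lay in HDAC9, a deacetylase gene without promoter H3K27ac (chr7:18216651-18219651), and in KMT2C, a gene of an H3K4 monomethyltransferase (chr7:152078551-152083151, with 2 p300/CBP peaks). Actin cytoskeleton and small GTPase signalling genes were linked in 5 of 44 cases (11.4%; median 276 kb), ARHGAP24, ARHGAP26, DIAPH3, FMN1 and RND3. The DIAPH3 member, 628 kb downstream of the TSS of this formin gene (chr13:60105651-60109751), held AP-1 and FOX letters. The one inside ARHGAP24, a Rac GTPase-activating protein gene (chr4:86707851-86709201), lay 8.75 kb from H3K27ac and held an AP-1 heptamer, and the one inside FMN1, another formin gene (chr15:33093551-33095451), held RUNX letters. RND3, an atypical small GTPase gene, had its member 272 kb downstream of the TSS (chr2:151070451-151072001).

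EGFR, RAS and MAPK genes were linked in 3 of 32 cases (9.38%; median 57.9 kb), DUSP6, ERBB4 and NRG1. The ERBB4 member (chr2:212886801-212887251, within this receptor gene, 38.3% of the words repeated) held an AP-1 heptamer, as did the one in NRG1, its ligand gene, and the DUSP6 member lay 170 kb downstream of the TSS of this ERK phosphatase gene with 2 p300/CBP peaks (chr12:89573501-89576251). Of the genes of epithelial to mesenchymal transition, 1 of 18 was linked (median 59.1 kb), ZEB2, whose 2 members lay 1173 and 1464 kb upstream (chr2:146450451-146450951 and chr2:146741601-146743301). Of luminal and epithelial genes, 1 of 24 was linked (median 28.3 kb), the epithelial ETS factor gene ELF3, with a member 17.8 kb downstream of the TSS (chr1:201997501-201999501) that lay 3.95 kb from H3K27ac and held AP-1, RUNX, GATA, FOX and CAGGTG letters. Of integrin, laminin and collagen genes, 1 of 48 was linked (median 103 kb), COL3A1, with members 277 and 201 kb upstream of a promoter without H3K27ac. No member was linked to any of the 12 AP-1 family genes, of the 18 YAP/TAZ and TEAD genes or of the 20 cytokine and chemokine genes, whose median lengths were 10.4, 48.1 and 6.10 kb.

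The 56 bound cIEs within 5 Mb of the longest N run carried other marks far more often than those on the arms. H3K4me3 was present at 28, or 50% (37.3 to 62.7%), against a background of 5.39% over all cIEs of that zone. Pol II was present at 20, or 35.7% (24.5 to 48.8%), against 5.88%, and CTCF at 8, or 14.3% (7.42 to 25.7%), against 8.47%. All 20 with Pol II also had H3K4me3, 6 had all 3, and 27 had none of the 3. They held 98 p300/CBP peaks, with a median of 150 bp and up to 1300 bp, and 10 of the 56 held 3 or more peaks, against 4 of 565 on the arms. The centre of the widest peak lay outside the region or within 100 bp of its edge in 33.9%, against 6.37% on the arms. Of the 2837 unbound cIEs in the zone, 4.51% had H3K4me3, 5.29% Pol II and 8.35% CTCF. The 343 bound cAEs of the same zone had H3K4me3 in 51.0% (45.7 to 56.3%), Pol II in 49.0% (43.7 to 54.3%), CTCF in 26.2% (21.9 to 31.1%) and 3 or more p300/CBP peaks in 18.1%, so that the shares with H3K4me3 and with 3 or more peaks lay close to those of bound cIEs there. Chromosome 4 held 10 of the 56, chromosome 2 held 8, and 22 lay within 1 Mb of the N run.

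Repeated sequence went with these values. In 55 of the 56 a 300 bp window free of N could be read, and every 32-base word of it was found once in hg19 in 17 (30.9%), against 80.9% on the arms and 64.3% of unbound cIEs in the same zone. Over 50% of the words were repeated in 23 windows (41.8%), against 3.19% on the arms. GGAATGGAA, the unit of a satellite repeat, was present in 16 windows (29.1%, 18.8 to 42.1%) in 1.24% of arm windows and in 7.02% of the 342 windows of bound cAEs in the same zone. Shifted against itself by some lag, the sequence of 19 of the 56 regions was identical at 60% or more of its bases, most often at a lag of 5 bp, in 8 regions, against 4 of 565 on the arms. AP-1 heptamers were present in 13 windows (23.6%, 14.4 to 36.3%), FOX letters in 2 and RUNX letters in 4. The part of repeated sequence in the marks of these regions was not tested.

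The region with most p300/CBP peaks, 8, lay on chromosome 17 (chr17:25264001-25267751), with H3K4me3 and Pol II and 266 kb from the nearest H3K27ac region. On chromosome 4 a region of 3450 bp (chr4:49642001-49645451) held 7 peaks, the widest of 1000 bp, with H3K4me3, Pol II and CTCF. Regions with 4 peaks lay on chromosome 10 (chr10:42358651-42359651) and chromosome 16 (chr16:46419401-46420501), both with H3K4me3, Pol II, CTCF and GGAATGGAA, and on chromosome 2 within ANKRD36C (chr2:96576451-96582801), with none of these marks, an AP-1 heptamer and 82.5% of its words repeated.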

How the data were processed

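ChIP-seq peak lists for H3K4me1, H3K4me3, H3K27ac, p300/CBP, Pol II and CTCF in MDA-MB-231 cells were analysed. Input libraries were not used here. The deposited lists hold peak starts and ends in bp on hg19 and nothing else. Per the paper's methods, the authors aligned reads with BWA-backtrack, made signal tracks with PASHA, merged the replicates and took peaks above a set signal level with the Integrated Genome Browser. The submitters' processing notes name Bowtie2 instead. A peak was read as running from its start up to its end.

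Peaks lay within GRCh37 chromosome lengths except 1 mitochondrial peak each for Pol II and p300/CBP. Genes came from GENCODE release 44 on GRCh37, where the study used RefSeq. Overlaps, distances, 32-base word counts and motif matches on both strands were computed with Python 3.11.15, NumPy 2.4.6, pandas 2.3.3 and numba 0.67.0, and checked on simulated data. A gene was linked to a region if it held the region's centre (the shortest such gene, counted as hosting the region) or had the nearest TSS. Figures used matplotlib 3.10.9.

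The members, gene lists, motifs and naming rules were chosen with earlier results of these data known. Named were the arm members with the 10 widest p300/CBP peaks, with 3 or more peaks, with Pol II, CTCF or H3K4me3 (up to 5 each), linked to a listed gene (up to 4 a list) or inside the 3 leading host genes, and the 5 with most peaks near the N run; some of these are given only in counts, and 1 is not reported here.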

Additional observations from a re-analysis of the deposited data

How the results depend on the processing

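Of 48 alternative values for 11 results, 40 stayed close to the value reported, that is, within 1.5 times for counts and within the 95% interval for shares. Some of these could hardly move, as the changed overlap, start-site window or 1 kb H3K27ac limit kept 558 to 561 of 565 arm members. With p300/CBP peaks of median width or more alone, 281 bound cIEs were found on the arms and 36 near the long N run. Setting the distance to the N run at 2 Mb or 10 Mb gave 32 or 88 members near it. In windows of 200 bp, TGAGTCA was present in 38.4% of arm members. Weighting unbound cIEs to the width quartiles of bound ones moved their shares to 9.28% for CTCF, 5.01% for Pol II and 3.71% for H3K4me3. The cause of these shifts was not tested beyond the change of the setting itself. Restricting members to windows of words found once in hg19, and the other windows and subsets for TGTTTAC, were chosen after seeing the data. No paired analysis was possible because replicates had been pooled into 1 list per antibody, so leaving out single replicates was not possible either. No stricter threshold could be set, as the lists carry no value per peak.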
